A study of Homo sapiens with 4 samples.

Results

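The HNRNPC peaks examined here are those in mRNA 3′ untranslated regions (3′ UTRs). A peak was taken when its centre lay in a 3′ UTR exon of a protein-coding GENCODE 44 transcript on the same strand. There were 452 such peaks in 376 genes, out of 9107 distinct HNRNPC peaks and 72614 peaks in both deposited lists. The data came from cross-linking and immunoprecipitation (CLIP) in MDA-MB-231, an established human breast cancer cell line, for which the labels name no drug and no genetic change. In CLIP, ultraviolet light (here 400 mJ per square centimetre at 254 nm) joins a protein to the RNA it touches, and the RNA fragments recovered with an antibody are sequenced as tags. There were 2 samples with an HNRNPC antibody and 2 with a PABPC4 antibody, and tags of both samples of a protein were pooled into 1 list. Intervals below are therefore 95% Wilson or order-statistic intervals that cover counting error only, and peaks of 1 gene are not independent. The labels and methods name irCLIP for HNRNPC, whereas the name of the list gives HITS-CLIP, and which of them gave the list was not settled here. The study asked how HNRNPC acts on the 3′ UTRs of its targets, including the choice among alternative 3′ ends.

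HNRNPC is an abundant, mostly nuclear protein that coats nascent transcripts and prefers runs of U. Its best-known sites are antisense Alu elements. An Alu is a repeat made of a pair of related arms, with an A-rich linker between them and an A tail. When a gene carries an Alu on the strand opposite to its own, both A-rich stretches are read into the RNA as U runs, which can resemble the 3′ ends of introns, and HNRNPC is known to keep the splicing factor U2AF from them. A 3′ UTR lies between the stop codon and the poly(A) tail. Many genes can end their mRNA at more than 1 place, either within 1 long last exon or in an upstream last exon that other transcripts treat as part of an intron.

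The sequences below show what stood at the edges of these peaks, read from hg38 as RNA, 5′ to 3′. The first set shows the start of 5 peaks with U runs. Each window holds 20 nt upstream of the peak and its first 10 nt, with runs of 4 or more U in capitals. A run near a peak is a description and not by itself a binding site. ING5, ZNF587, CC2D1B and AXL carry an antisense Alu there, and ACTB does not. AXL was chosen after its values were seen, for the longest U run.
ING5 (chr2:241727086-241727115, plus strand): cgccuggccacccagcuaaguuuguaUUUU
ZNF587 (chr19:57861931-57861960, plus strand): ggcuaaUUUUauuuauuuaUUUUaguagag
CC2D1B (chr1:52351879-52351908, minus strand): cgaUUUUUUUUUUUUUUUUUUUUUUgagac
AXL (chr19:41260294-41260323, plus strand): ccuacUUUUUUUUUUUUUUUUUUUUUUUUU
ACTB (chr7:5527628-5527657, minus strand): UUUUUUgUUUUgUUUUggUUUUUUUUUUUU

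The next window is the longest U run of F3, which lay just upstream of the peak, again in an antisense Alu.
F3 (chr1:94530071-94530100, minus strand): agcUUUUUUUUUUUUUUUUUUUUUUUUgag

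Many of the tallest peaks had no such run. The starts of the peaks in HYOU1, MKNK2 and EHMT1 are shown for contrast, in the same kind of window. The peaks of HYOU1 and EHMT1 had GUGUCA at or near the 3′ end, a motif described below.
HYOU1 (chr11:119044520-119044549, minus strand): cagggcuggccuuccucugugcaucacucu
MKNK2 (chr19:2039167-2039196, minus strand): ggcacaggacccugcccucguguucccucc
EHMT1 (chr9:137745514-137745543, plus strand): ugguggcucuggcacucugaaacagucacu

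The last set shows the final 30 nt of peaks that held GUGUCA there, a motif found at the 3′ end of 152 peaks, with it and a following G in capitals.
HYOU1 (chr11:119044387-119044416, minus strand): aagaaugaaccuggcuGUGUCAGucauuuu
KLHL21 (chr1:6593482-6593511, minus strand): accuucuggcauggcaGUGUCAGcaucuuc
RTL10 (chr22:19848240-19848269, minus strand): ucugcuuucuaaucaugGUGUCAGuccuuc
TSPAN14 (chr10:80521177-80521206, plus strand): cagcagagcagagaggGUGUCAGucucauc
KTN1 (chr14:55662976-55663005, plus strand): ggaggccagcagauagcaGUGUCAGucuuu

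Most of the 452 peaks were low, and a few genes stood far above the rest. The height of a peak is the number of pooled tags at its summit. Heights ran from 4 to 196 tags with a median of 11 (quartiles 8 and 16), and 366 peaks were under 20 tags. The intron peaks of the same list had the same median, 11 tags (quartiles 8 and 17). Only 18 peaks in 3′ UTRs reached 50 tags and 7 reached 100, and the 20 tallest held 23.2% of the summed height of 7445 tags. The median width was 109.5 nt (quartiles 87.75 and 135.5). The authors' p-value was at most 0.001 for 310 peaks and above 0.05 for 34, or 7.52% (5.43 to 10.3%).

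The tallest peak, at 196 tags, lay in TNFRSF10B, a death receptor for the cytokine TRAIL. HYOU1, a chaperone of the endoplasmic reticulum, followed with 154 tags, 1135 nt after the stop codon. EHMT1, a histone H3 lysine 9 methyltransferase, had 134 tags at 73 nt after the stop codon of a short transcript. ING5, a chromatin reader of the ING family, had 118 tags in an antisense Alu, the only peak over 100 tags that overlapped one. MKNK2, a kinase of the cap-binding factor eIF4E, and AGO2, the slicing Argonaute protein of microRNA complexes, both reached 115 tags. CD59, which shields cells from the complement attack complex, reached 102 tags. KLHL21, an adaptor of a cullin ubiquitin ligase, had 82 tags. That site is 3′ UTR in 1 of its 5 coding transcripts and coding sequence in 3, the canonical one included. RTL10 and TSPAN14 had 78 and 71 tags, and MPRIP, which links myosin phosphatase to the cytoskeleton, had 67. Among abundant housekeeping mRNAs, the glycolytic enzyme ENO1 had 66 tags, the cytoplasmic actin ACTG1 had 62 and the chaperone HSP90AB1 had 55. CYBA, a subunit of NADPH oxidase, had 64 tags, CCDC9B 53 and F3, the tissue factor that starts coagulation, 51. BICD2, a dynein adaptor, had 50 tags and the zinc finger gene ZNF587 had 49. KTN1, a receptor of kinesin, and RLIM, a ubiquitin ligase, had 46 each. Heights were not scaled to the abundance of each mRNA, so they do not rank genes by affinity. No peak without GUGUCA at its 3′ end was taller than 118 tags, so the peaks of TNFRSF10B, HYOU1 and EHMT1 all had this motif. The part of library preparation in the motif was not tested.

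**Figure D1:**
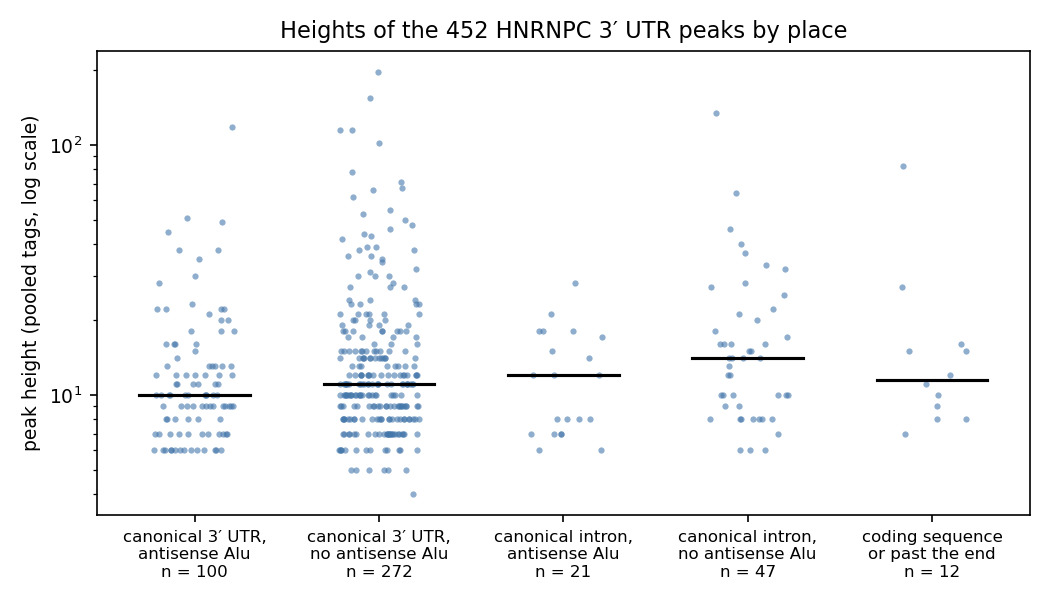
Height of each of the 452 HNRNPC 3′ UTR peaks (pooled tags at the summit, log axis) by where its centre falls in the gene's canonical transcript and by overlap with an antisense Alu. Points are single peaks, spread sideways at random, and bars are medians. The medians lie between 10 and 14 tags in all 5 classes, and the peaks over 100 tags lie mostly in canonical 3′ UTRs without an antisense Alu.

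Position along the 3′ UTR was measured from the stop codon to the end of the chosen transcript. HNRNPC peaks lay in long 3′ UTRs, spread over most of their length, and were sparse close to the 3′ end. The 3′ UTRs that held them had a median length of 3091.5 nt (quartiles 1687.5 and 5611), against 1064 nt (388 and 2415) for the canonical 3′ UTRs of 19229 protein-coding genes. Longer 3′ UTRs offer more places for a peak, and the part of length in this difference was not tested. The median centre lay 1106.5 nt after the stop codon (quartiles 481.75 and 2349.25) and 1623.5 nt before the 3′ end (634.75 and 3108.5). As a relative position, with 0 at the stop codon and 1 at the end, the median was 0.389 (interval 0.360 to 0.451). Nearer to the stop codon than to the end were 268 of 452 peaks, or 59.3% (54.7 to 63.7%). This share was 56.8% in 3′ UTRs under 2000 nt and 60.4% in longer ones, a difference of -3.55 points whose Newcombe interval ran from -13.4 to 6.12.

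The final 10% of the length held 15 peaks, or 3.32% (2.02 to 5.40%). The fullest step of 10% was the fourth from the stop codon, with 70 peaks or 15.5% (12.4 to 19.1%), and the next held 37. PABPC4, which was mapped by a method that primes at poly(A) tails and thus marks mRNA ends, showed another shape. Of its 18889 3′ UTR peaks, 33.8% lay in the final 10%, and its median relative position was 0.711. The lists come from different methods, so their contrast is of protein and method together.

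**Figure D2:**
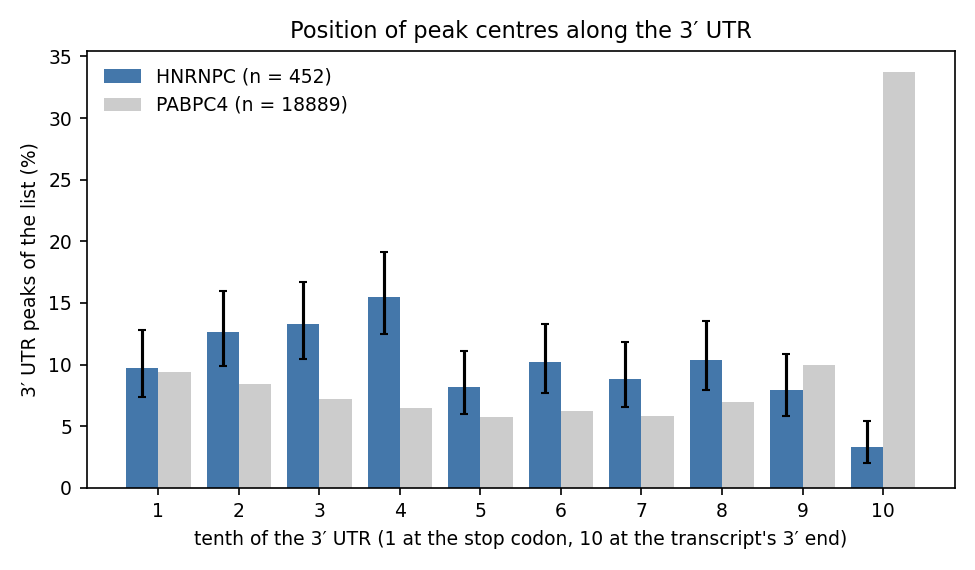
Share of the 3′ UTR peaks of each list (%, vertical axis) in each 10% step of the 3′ UTR, from the stop codon (1) to the transcript's 3′ end (10). Error bars on the HNRNPC bars are 95% Wilson intervals for counting error. HNRNPC peaks fill steps 1 to 9 with 7.96% to 15.5% each and drop to 3.32% in the last, where PABPC4 has 33.8%.

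Distances in nucleotides gave the same picture at the 3′ end and no marked crowding at the stop codon. Within 100 nt of the stop codon lay 28 peaks, or 6.19% (4.32 to 8.81%). A stretch of that length makes up on average 5.95% of the 3′ UTRs that hold the peaks, so this share was near that of the sequence itself. Within 100 nt of the transcript's own 3′ end lay 7 peaks, or 1.55% (0.752 to 3.16%), below the same 5.95%. That 5.95% counts every base, whereas the centre of a peak that stays within the transcript cannot reach the last ones. The narrowest peak was 60 nt wide, and the nearest centre lay 56 nt from its end. The part of peak width in the low shares at the 3′ end was not tested. At 250 nt the shares were 12.6% for the stop codon and 9.96% for the end, against 13.9% of the sequence. At 500 nt they were 26.3% and 19.7%, against 25.01%. PABPC4 had 38.0% of its 3′ UTR peaks within 100 nt of the end.

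The tallest peaks within 100 nt of a stop codon were those of EHMT1 at 73 nt, ENO1 at 27 nt with 66 tags, HSP90AB1 at 72 nt and KTN1 at 1 nt with 46 tags. These 4 peaks were 111 to 197 nt wide, so each reached back across the stop codon or up to it. The 7 peaks within 100 nt of their own end were low apart from HMGA2, which encodes a chromatin protein of embryonic and tumour cells. HMGA2 had 32 tags, 78 nt before the end of a short transcript and in an intron of the canonical one. The others included MFSD11 with 16 tags, the splicing factor PRPF6 with 10 and the splicing factor SRSF5 with 6.

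Because many genes have several annotated 3′ ends, the peaks were also placed against all of them. Genes with 2 or more ends more than 50 nt apart held 351 peaks, or 77.7% (73.6 to 81.2%). A more proximal end of the gene lay upstream of 273 peaks, or 60.4% (55.8 to 64.8%). Such peaks lie in RNA that a transcript using the proximal end would not contain. Within 100 nt of any annotated end of the gene were 40 peaks, or 8.85% (6.57 to 11.8%), and the median distance to the nearest end was 777.5 nt. For PABPC4, 53.2% of 3′ UTR peaks were that close to an annotated end. For these HNRNPC counts, the matching shares over all bases of the same 3′ UTRs or over all genes were not calculated. The counts therefore describe where the peaks lay and show no preference.

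The tallest peaks near an annotated end were EHMT1 (30 nt), CD59 (10 nt), HMGA2 (78 nt) and ACTB (31 nt). In CD59 the centre was 10 nt from 1 of 9 annotated ends, with 4 ends upstream and 6635 nt left to the last end. AXL, a receptor tyrosine kinase, had a peak of 22 tags with its centre 88 nt from an end, at 478 nt after the stop codon. It began inside the run of 31 U, most of which is shown above.

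Within 1 exon, tandem ends gave a closer look. There were 268 peaks in exons with 2 or more ends. Before the first of those ends lay 63 of them, or 23.5% (18.8 to 28.9%), and 205 lay between ends, or 76.5% (71.1 to 81.2%). The stretch before the first end made up on average 19.7% of those exons, inside the interval of the first share.

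Most peaks lay in the main 3′ UTR of their gene, and a smaller set lay in upstream 3′ UTRs that the canonical transcript splices out. The canonical transcript was MANE Select where one exists. Its 3′ UTR held 372 peaks, or 82.3% (78.5 to 85.5%). An intron of it held 68 peaks in 59 genes, or 15.04% (12.04 to 18.6%), its coding sequence held 7, and 5 lay beyond its 3′ end. Against the sequence, 14.4% of the bases of the peaks' own 3′ UTRs lay in such introns on average, so the share was near that of the sequence. Counting any other coding transcript, 141 peaks, or 31.2% (27.1 to 35.6%), lay in an intron of at least 1, and 29.8% of the bases did. All 452 centres lay in the last exon of the chosen transcript. For these 68 peaks, binding to the short mRNA and binding to the unspliced precursor of the long one cannot be told apart in these data.

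The 68 peaks had a median height of 12.5 tags (quartiles 8 and 18), against 11 (8 and 16) for the 372 peaks in canonical 3′ UTRs. Their 3′ UTRs were shorter, with a median of 2227.5 nt against 3483.5 nt. Their centres lay closer to the stop codon, at a median of 689.5 nt (interval 553 to 896) against 1247 nt (1067 to 1472). An antisense Alu was present in 30.9% and 26.9% of them, a difference of 4.001 points with a Newcombe interval of -6.80 to 16.5. In 42 of the 68, the gene also had HNRNPC peaks assigned to introns. Counted by gene, 162 of all 376 genes had intron peaks. The matching share by peak for the 372 peaks was not calculated, so this count shows no preference.

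EHMT1 carried the tallest of them. Its 3 peaks of 134, 28 and 21 tags all lay in introns of the canonical transcript, in the last exons of 2 short transcripts, and the gene had 19 further intron peaks. CYBA had 64 tags at 896 nt after the stop codon of a short form, in an intron of 7 of its 14 coding transcripts. KTN1 had 46 tags and DIDO1, a chromatin-associated protein, 40. PSMG4, a proteasome assembly chaperone, had 37 tags, the phosphate transporter SLC20A1 33 and HMGA2 32. HMGA2 had 28 further intron peaks and SNX5, a sorting nexin with 27 tags in the class, had 14, whereas CYBA had none.

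Where the peaks met an Alu element, it was nearly always in antisense orientation. An antisense Alu, found by a match of at least 50 nt to a consensus built from the reference genome, overlapped 122 of 452 peaks, or 27.0% (23.1 to 31.3%), in 108 genes. A sense Alu overlapped 1 peak, or 0.221% (0.0391 to 1.24%). The centres of 108 peaks, or 23.9% (20.2 to 28.0%), lay inside an antisense Alu, while antisense Alu made up on average 7.46% of the 3′ UTRs that held the peaks and sense Alu 2.39%. Over all canonical 3′ UTRs the shares of bases were 3.001% antisense and 3.08% sense. Of the 452 peaks, 232 lay in a 3′ UTR with some antisense Alu and 129 in one with some sense Alu.

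Intron peaks of the same list overlapped an antisense Alu more often, in 2831 of 7782 or 36.4% (35.3 to 37.5%). The difference was -9.39 points with a Newcombe interval of -13.4 to -4.98. The share of intron bases in antisense Alu was not calculated, and the part of sequence content in this difference was not tested. Sense Alu overlapped 0.707% of them, a difference of -0.486 points (-0.765 to 0.549).

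Within the Alu, the peaks began at 2 places. The consensus was 282 nt long without its tail, with the linker at positions 117 to 136, where 14 of 20 bases were A. The start of 92 peaks fell inside the match, and 50 of them began at positions 61 to 160, around the linker and on its downstream side in the antisense RNA. Another 36 began at positions 221 to 280, behind the tail, and 6 began elsewhere. The other 30 peaks began outside the match. The linker and the tail are the places where the antisense RNA has its U runs.

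**Figure D3:**
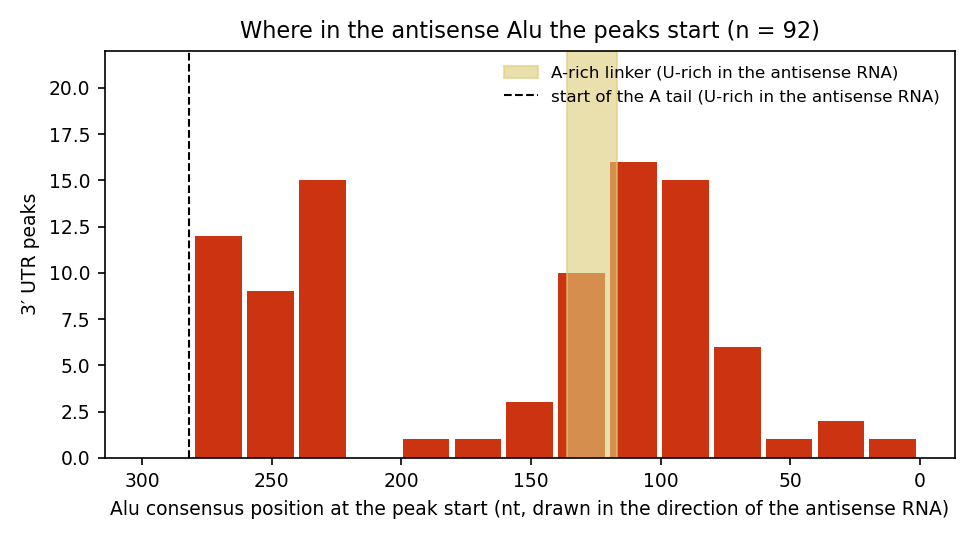
Number of HNRNPC 3′ UTR peaks (vertical axis) by the Alu consensus position at the 5′ start of the peak, in 20-nt steps, for the 92 peaks that start inside an antisense Alu. The axis runs from high to low positions, which is the direction of the antisense RNA. Starts gather just after the tail (36 at 221 to 280) and around the linker (50 at 61 to 160).

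The tallest antisense Alu peaks after ING5 were in F3 with 51 tags, ZNF587 with 49, the phosphatase DUSP4 with 45, and CC2D1B and MDM4, an inhibitor of p53, with 38 each. F3 had a run of 24 U, CC2D1B of 22 and AXL of 31, whereas ING5 had 5 and ZNF587 4. Among these genes the tallest peak had one of the shortest runs. The single peak with a sense Alu was the third of the MPRIP peaks, with 67 tags, and it had no run of more than 3 U from 50 nt upstream to its end. Peaks of 20 or more tags numbered 19 of 122 with an antisense Alu and 66 of 329 with no Alu. Alu peaks lay in longer 3′ UTRs, with a median of 3980 nt against 2749 nt.

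U runs near the start followed the Alu. UUUUU, searched on the transcribed strand from 50 nt upstream to 10 nt inside the start, was present for 146 of 452 peaks, or 32.3% (28.2 to 36.7%). It was present for 84 of 122 antisense Alu peaks, or 68.9% (60.2 to 76.4%), and for 62 of 329 peaks with no Alu, or 18.8% (14.99 to 23.4%), a difference of 50.01 points (Newcombe interval 40.2 to 58.5). Over all windows of the same length, 60 nt, in the same 3′ UTRs, UUUUU was present in 24.3% for the Alu peaks and 17.4% for the others. So for peaks with no Alu the share was near that of all windows of their 3′ UTRs, including any windows in Alu elements. Of these 329 peaks, 134 had GUGUCA at the 3′ end, and the share without them was not calculated. Among all 300 peaks without GUGUCA there, with or without an Alu, UUUUU was present in 40%. Runs of 9 U were present for 27.9% (20.7 to 36.4%) of Alu peaks and 2.43% (1.24 to 4.72%) of peaks with no Alu, against 3.71% and 1.94% of windows.

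The same split held among intron peaks, where 72.5% with an antisense Alu and 13.98% with no Alu had UUUUU. With an Alu, 3′ UTR peaks differed from intron peaks by -3.63 points (-12.5 to 4.09). With no Alu, the 3′ UTR share was higher by 4.86 points (0.878 to 9.53). Runs of 20 or more U were found in 9 peaks, 8 of them with an antisense Alu. The exception was SLC35F2, a solute carrier, with a run of 21 U. ACTB had a run of 16 U at the start of its tallest peak with no Alu.

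The base composition changed at the peak start. In antisense Alu peaks, U made up 41.6% of the 10 nt before the start and 28.4% of bases 10 to 19 nt inside it. Peaks with no Alu went from 29.7% to 25.2% over the same places, and intron peaks from 33.4% to 27.4%. Over the whole peak the median GC content was 56.0% (quartiles 51.8 and 60.8).

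**Figure D4:**
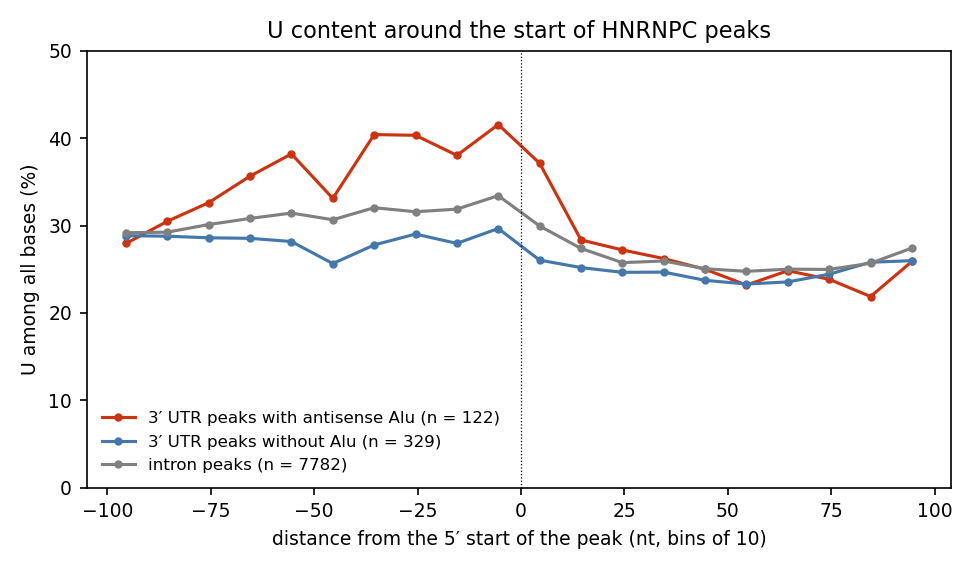
Share of U among all bases (%, vertical axis) in 10-nt bins from 100 nt upstream to 100 nt inside the 5′ start of HNRNPC peaks. Lines are 3′ UTR peaks with an antisense Alu, 3′ UTR peaks with no Alu, and intron peaks. The Alu line stands near 40% before the start, with 41.6% in the last bin, and the 3 lines come together inside the peak.

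GUGUCA marked the other end of the peaks. It started between 20 nt before and 15 nt after the 3′ end of 152 of 452 peaks, or 33.6% (29.4 to 38.1%), against 1.79% of all 41-nt windows of the same 3′ UTRs, a length that holds these starts. It was less frequent in antisense Alu peaks, at 14.8% (9.54 to 22.1%), than in peaks with no Alu, at 40.7% (35.6 to 46.1%), a difference of -25.98 points (-33.5 to -16.98). Intron peaks had it in 40.7%, and the 3′ UTR share was lower by 7.12 points (interval of the difference -11.5 to -2.51). Among the 20 genes with the tallest peaks, 11 had it there, as did 9 of the 18 peaks of 50 or more tags. Peaks with it were 12 tags high at the median (quartiles 8 and 22.25), against 11 (8 and 15) for the others. The sequences of the linker and primers used to make the libraries were not given in the sources used here, and the part of library preparation in this motif was not tested. An antisense Alu, UUUUU near the start or GUGUCA at the end was present for 301 of 452 peaks, and 151, or 33.4% (29.2 to 37.9%), had none of them.

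Most genes had a single peak in the 3′ UTR. There were 323 genes with 1 peak, 39 with 2 and 14 with 3 or more. Neighbouring peaks of 1 gene were separated by a median of 770 nt over 76 pairs, and 12 pairs were closer than 100 nt. Of the 376 genes, 162 or 43.1% (38.2 to 48.1%) also had intron peaks, and 201 or 53.5% (48.4 to 58.4%) had HNRNPC peaks in the 3′ UTR and nowhere else.

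MPRIP had the most, 7 peaks of 13, 15, 67, 14, 15, 17 and 34 tags from 271 to 6749 nt after the stop codon, and 17 intron peaks besides. AGO2 had 5 peaks of 115, 14, 15, 48 and 15 tags, spread from 1064 to 6779 nt along a 3′ UTR of 11888 nt, with no Alu at any of them. CCDC9B had 4 peaks of 23, 53, 22 and 21 tags side by side between 806 and 2085 nt. Only the third of these carried an antisense Alu, with a run of 22 U.

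TNPO2, an importer of RNA-binding proteins into the nucleus, had 4 even peaks of 10, 10, 10 and 13 tags. TOR1AIP2, a partner of torsin at the endoplasmic reticulum, also had 4 peaks, of 8 to 12 tags, all in antisense Alu elements. These lay in 2 separate 3′ UTRs, of which the upstream one is in an intron of the canonical transcript. In CBX5, the heterochromatin protein HP1 alpha, 2 of 3 peaks lay side by side in antisense Alu sequence, at 7878 and 8037 nt. The other genes with 3 peaks included ACTB, CIRBP, CYTH2, EHMT1, GPRC5A, KIF18B and RBM33, with heights from 8 tags in RBM33 to 134 in EHMT1. Of the 51 peaks in these 14 genes, 14 had an antisense Alu, against 27.0% of all 452 peaks. Only 5 of the 51 had GUGUCA at the end, against 33.6% of all.

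**Figure D5:**
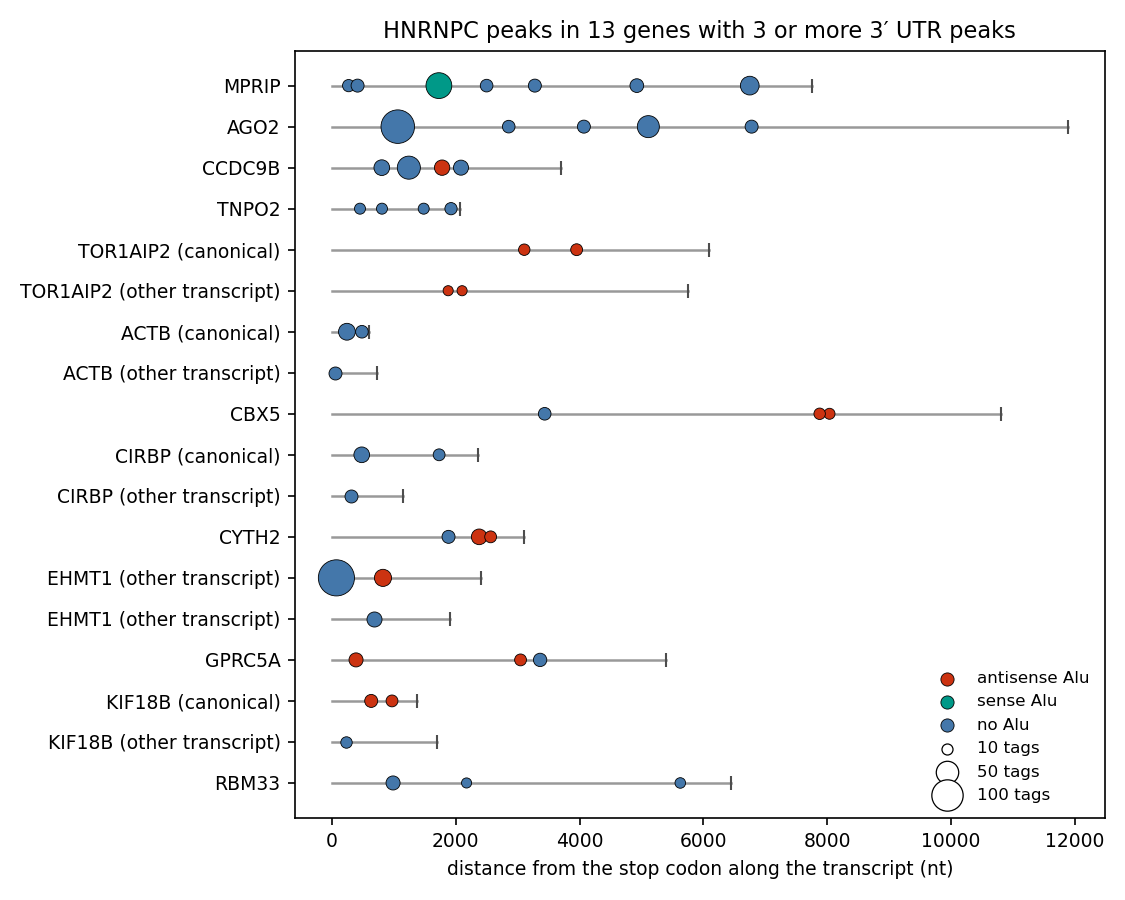
HNRNPC peaks along the 3′ UTR in 13 of the 14 genes with 3 or more of them, as distance from the stop codon along the transcript (nt). Each grey line is a 3′ UTR, ending at the tick. Circles are peak centres with area rising with height, red for an antisense Alu, green for the sense Alu and blue for no Alu. MPRIP, AGO2 and RBM33 carry widely spaced peaks, CCDC9B and TNPO2 carry close ones, and all 4 in TOR1AIP2 are red.

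The genes with a 3′ UTR peak served many functions. They were 376 of 19226 genes with a protein-coding 3′ UTR, or 1.96%, and of the 3826 genes with an HNRNPC peak anywhere they were 9.83%. Counts for 17 lists of genes, defined by patterns in gene symbols, are read beside these shares. The lists held 140 of the 376 genes, and the patterns miss some genes of a function. A larger share than 1.96% was found in 11 of the 17 lists, and 9 of these 11 also had more genes with an HNRNPC peak anywhere than the 19.9% of all genes. The part of expression and gene length in the list shares was not tested.

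Genes of protein folding in the endoplasmic reticulum had the highest share of the lists, 5 of 46 or 10.9%. The lists were chosen with earlier results of these data known, so this rank is a description only. HYOU1 led with 154 tags. It was followed by UGGT1, the sensor of glycoprotein folding, with 21 tags, the lectin chaperone CANX and EDEM1, which sends misfolded glycoproteins to degradation, with 12 each. The oxidase ERO1A had 6 tags and an authors' p-value of 0.0739. With 16 of the 46 bound anywhere, the share among bound genes was 31.2%, from small counts.

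Zinc finger genes were the most numerous, 21 of 618 or 3.40%, led by ZNF587 with 49 tags and ZNF8 with 44. Of the 122 zinc finger genes bound anywhere, 17.2% had a 3′ UTR peak. RNA processing and RNA-binding proteins had 14 of 346 or 4.05%. After AGO2 came the helicase DDX17 with 39 tags, ADAR, the enzyme that edits A to I in double-stranded RNA, with 30, RBM33 with 18 and the splicing factor SRSF1 with 16.

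Kinases had 14 of 333 or 4.20%, led by MKNK2 and by STK4, a kinase of the Hippo pathway, with 39 tags. One of the 14, MAPK1IP1L, is named for a kinase and is not known to be one. The list's pattern also missed AXL, a receptor tyrosine kinase with a 3′ UTR peak. Chromatin modifiers had 7 of 199 or 3.52%, among them EHMT1, ING5, the DNA methyltransferase DNMT1 and the methyltransferase NSD2. Of the chromatin genes bound anywhere, 8.54% had a 3′ UTR peak, under the 9.83% of all bound genes.

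The ubiquitin system had 17 of 526 or 3.23%, with KLHL21, RNF213 at 42 tags and MDM4 the tallest. Its list also took in PSMG4 and PSMG1, which assemble proteasomes. Vesicle trafficking had 15 of 412 or 3.64%, with SNX5, GOLGA3 and TRAPPC10 the tallest. Adhesion and cytoskeleton genes had 13 of 403 or 3.23%, with ACTG1, the microtubule protein MAP1B at 43 tags and ACTB at 27.

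Translation factors and ribosomal proteins had 7 of 211 or 3.32%. Their tallest was MKNK2, followed by RPS15A with 28 tags in an antisense Alu. DNA replication and repair genes had 6 of 164 or 3.66%, with POLA2, CDC6, MCM4, ERCC1 and RAD51D in order. The TNF receptor family and apoptosis genes had 4 of 106 or 3.77%, namely TNFRSF10B, CASP2, BAX and MCL1. Among genes of a list bound anywhere, the share with a 3′ UTR peak is read against 9.83%. It was 8.33% for replication and repair, 9.86% for translation, 11.3% for adhesion and cytoskeleton and 11.4% for RNA processing. It was 11.9% for kinases, 12.1% for the ubiquitin system, 12.5% for vesicle trafficking and 19.0% for TNF receptors and apoptosis. The last share rests on 4 of 21 genes.

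The 6 remaining lists were under the share of all genes. Solute carriers had 6 of 384 or 1.56%, small GTPase regulators 3 of 189 or 1.59%, and TMEM genes 4 of 236 or 1.69%. Mitochondrial genes had 4 of 298 or 1.34%, innate immunity genes 3 of 256 or 1.17%, and cell cycle genes 2 of 190 or 1.05%. The symbol patterns missed genes with a 3′ UTR peak, such as mitochondrial SCO1 and the mitotic genes TPX2 and TACC3. These shares are therefore of the lists and not of whole functions. Few of the innate immunity genes, 15 of 256, had an HNRNPC peak anywhere. The cell cycle genes had one in 65 of 190, of which 3.08% had a 3′ UTR peak.

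Genes of interest to the study, as targets, reporters or the proteins themselves, were looked up as well. PDLIM5, KAT14, TXNRD1, PGK1, HNRNPC and PABPC4 each had 0 HNRNPC peaks in the 3′ UTR in this list. Elsewhere in the gene, HNRNPC had 11 peaks, PDLIM5 5, TXNRD1 4, PGK1 and PABPC4 1 each, and KAT14 0. The absence concerns this list alone, and other binding data of the study were not analysed here. The labelled cell line was checked through the tallest PABPC4 3′ UTR peak of marker genes. Mesenchymal and basal markers had peaks, with VIM at 10197 tags, CAV1 at 2714, AXL at 1041, EGFR at 600 and CD44 at 331. The oestrogen and progesterone receptors ESR1 and PGR had no peak. GATA3, EPCAM and CDH1 had 108, 88 and 56 tags, below all of the mesenchymal and basal markers. No cut-off for presence was set, and peak heights were not compared with expression.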

How the data were processed

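For the HNRNPC samples, per the submitters' processing notes and the methods, the authors extracted molecular identifiers with UMI-tools, trimmed with cutadapt, aligned to hg38 with BWA 0.7.17, and found peaks through the CLIP Tool Kit. The deposited signal is each peak's height in pooled tags, not scaled to depth, beside an expected height and the authors' p-value. The methods also describe a union with a published data set; whether the list includes it is not given in the sources used here. Read totals per sample were not analysed here.

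Entries sharing a position were merged, and the lowest p-value was kept. The centre was placed in GENCODE 44 on the GRCh38 reference, with 0 peaks past a chromosome end. The wider rule, any transcript with a coding sequence, gave 519 peaks. The rule with protein-coding transcripts, which gave 452, was taken as the main one after both counts were known, and the wider one is an alternative. The chosen transcript was MANE Select, else the Ensembl canonical one, else that with the longest 3′ UTR. Annotated 3′ ends within 50 nt were joined. Of the 452 peaks, 434 were listed under the assigned gene and 29 under more than 1 gene ID.

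Alu matches came from BLAST 2.17.0 (E-value limit 1e-05, at least 50 nt) with a consensus of 200 copies taken from the reference. Tested on simulated data, 299 of 300 planted copies were recovered and 0 of 100 random sequences matched, and 2000 of 2000 spliced positions were recovered. The GUGUCA window was set after its offsets were seen. Sequences were read with samtools 1.23.1. Shares have 95% Wilson intervals and differences Newcombe intervals (Python 3.11.15, statsmodels 0.14.6). No significance test was run, since 1 pooled list has no spread between samples.

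Named genes were those with the 20 tallest peaks, with 3 or more peaks, with the 4 tallest peaks of each class (antisense, sense or no Alu, canonical intron, within 100 nt of an annotated end or of the stop codon), the tallest of each list, and genes the study named. CC2D1B, RLIM, MFSD11, PRPF6, SRSF5, PSMG1 and AXL were named after their values were seen. The peaks, gene lists and rules were chosen with earlier results of these data known. Sequence from chromosome 8 and values of a few named items are not reported here.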

Additional observations from a re-analysis of the deposited data

How the results depend on the processing

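No paired analysis was possible because 1 list holds the tags of both HNRNPC samples, and for the same reason no sample could be left out. Recalculation under the other settings gave 89 values, of which 76 stayed inside the main interval or within 1.5 times the main count. Taking only peaks at or above the median height left 242 peaks in 204 genes, with UUUUU near the start in 28.1%. Without the peaks that had GUGUCA at the 3′ end, 300 peaks in 245 genes were left, with an antisense Alu in 34.7% and UUUUU in 40%. With every transcript that has a coding sequence, 72.8% lay in the canonical 3′ UTR, and this setting adds transcripts marked for decay. With the shortest 3′ UTR for each peak, the median relative position was 0.470 and the median distance to the 3′ end 1244.5 nt. UUUUU was present in 48.9% from 100 nt upstream to the peak end, 4 U in 46.5% and 9 U in 9.29%. The smaller sets have fewer members by construction, and the cause of the other shifts was not tested. The lowest peak had 4 tags, and a gene with no peak is not shown to be unbound.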
